A study of Mus musculus with 15 samples.

Results

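The fast fibre contractile genes are 10 genes whose products build the contractile apparatus and handle calcium in fast-twitch muscle fibres. They are the myosin heavy chains Myh4, Myh1 and Myh2, the regulatory light chain Mylpf, the troponin subunits Tnnt3, Tnni2 and Tnnc2, the Z-disc protein Actn3, the calcium pump Atp2a1 and the calcium buffer Pvalb. They were chosen by symbol, and all 10 were found, each on a single line, among 14272 named genes of the deposited table. All 10 were among the 14059 genes tested.

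Transcripts were measured by RNA sequencing in quadriceps of male DBA/2J-mdx mice, with 3 groups of 5 libraries. These mice lack dystrophin and model Duchenne muscular dystrophy. All 15 libraries carry the mdx background, and muscle with normal dystrophin was not analysed here. Every mouse had 7 intraperitoneal injections a week. In the vehicle group all of them were DMSO, in the weekly group 1 was the synthetic glucocorticoid prednisone at 1 mg/kg and the other 6 were vehicle, and in the daily group all 7 were prednisone at that dose. The mice were 6 months old by the protocol text and about 7 months old by the sample descriptions. The length of treatment and the delay from the last injection to sampling are not given in the sources used here. Nothing in the labels tells if replicate libraries are separate mice, and the p-values therefore reflect the spread between samples alone, which may be technical.

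Skeletal muscle contracts when calcium released from the sarcoplasmic reticulum binds troponin C, which lets myosin heads pull on actin. Adult limb fibres are typed by the myosin heavy chain they make. Fibres with Myh4 (type IIb) are the fastest, followed by fibres with Myh1 (type IIx) and Myh2 (type IIa), and slow fibres use Myh7. Mouse quadriceps is mostly fast muscle. Glucocorticoids given over long periods are known to cause wasting that affects fast fibres more than slow ones. In bulk muscle, a lower level of a fibre gene can come from fewer fibres of that type or from less of that RNA per fibre, and these cannot be told apart.

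The 3 myosin genes lie side by side on chromosome 11 of GRCm38, all on the plus strand. By the GENCODE M21 annotation, Myh2 spans 67171027 to 67197517, Myh1 spans 67200052 to 67224575 and Myh4 spans 67238029 to 67260446. RefSeq promoter sequences (build GRCm38.p6) were matched for 7 of the 10 genes by symbol, and Actn3, Tnnt3 and Tnni2 had no entry. The myosin promoters are shown because the balance of these genes is the pattern described further on. Each sequence reads 5′ to 3′ on the plus strand, over 120 bases that begin at position -220 from the RefSeq start, and capitals mark runs of at least 12 bases shared exactly with another of the 3 promoters.
Myh2, chr11:67170807-67170926: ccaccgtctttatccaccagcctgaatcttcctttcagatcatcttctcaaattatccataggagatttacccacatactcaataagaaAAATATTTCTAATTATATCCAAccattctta
Myh1, chr11:67199882-67200001: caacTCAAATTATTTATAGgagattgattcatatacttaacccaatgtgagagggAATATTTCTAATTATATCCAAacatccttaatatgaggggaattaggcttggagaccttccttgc
Myh4, chr11:67237592-67237711: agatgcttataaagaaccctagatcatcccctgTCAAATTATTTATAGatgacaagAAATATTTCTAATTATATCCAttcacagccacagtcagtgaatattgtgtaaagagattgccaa

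A run of 20 bases, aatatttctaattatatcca, is present in all 3 windows. It occurs in 3 of 32851 RefSeq promoters searched over 250 upstream bases on both strands, and these are the promoters of Myh1, Myh2 and Myh4. Myh1 and Myh4 share a further run of 15 bases that is not matched in Myh2. Over the full 250 bases, TATAAA on the forward strand was found in 2 of the 7 promoters, those of Myh1 and Myh4, against 7.59% of all promoters. The sequence AGAACA, which is the half-site of a glucocorticoid receptor element, was found on either strand in 2 of 7, those of Myh4 and Mylpf, against 16.1% of all promoters. CANNTG, the E-box that myogenic factors recognise, was found in 5 of 7 promoters against 66.2% of all. Pvalb has 2 promoter entries, and the E-box is in 1 of them. No motif match overlapped another or the shared run, and a match describes the letters only.

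Library depth, recovered from the deposited values, was 2780768 to 11052552 reads, and a count of 3 reads corresponds to 0.271 to 1.08 CPM (reads scaled to the same total in every library). The lowest member value in any library was 482 CPM, so depth does not limit these genes. The vehicle libraries lay close together, with a chi-square per degree of freedom of at most 2.01 between pairs, against 19.2 to 88.6 for weekly and 4.61 to 211 for daily pairs. A pair of libraries stood apart. Weekly 4 was the shallowest and had 0.567% of its reads in the mitochondrial ribosomal transcript mt-Rnr2, where the other weekly libraries had 6.22% to 9.41%, daily libraries 8.05% to 14.4% and vehicle libraries 12.6% to 13.4%. The part of this difference in the weekly results was not tested. Daily 3 had 20.5% of its reads in Gm26924 and 7.79% in Lars2, and its TMM factor was 0.653 against 0.952 to 1.21 elsewhere, where TMM is a trimmed-mean scaling between libraries. All 12 markers of skeletal muscle fibres were present, summing to 251496 to 256775 CPM in vehicle, 207693 to 284224 CPM in the weekly group and 146770 to 233672 CPM in the daily group. These markers include Myh4, Myh1, Myh2 and Myh7, so the sum is partly made of the genes described here.

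The 10 genes together held 6.83% to 6.97% of the reads in vehicle libraries, 5.49% to 9.23% in weekly libraries and 4.42% to 6.75% in daily libraries. Per kilobase of merged exons, Myh4 was the most abundant member in vehicle muscle at 4968 ± 90.3 CPM per kb (mean ± SD, n = 5, as for all group values). Atp2a1 followed at 3510 ± 43.5 CPM per kb. Mylpf at 3120 ± 110 and Tnnt3 at 3002 ± 18.5 CPM per kb came next, with overlapping ranges. Pvalb stood at 2325 ± 56.8 and Tnni2 at 1471 ± 11.7 CPM per kb. Myh1 at 1142 ± 23.3, Actn3 at 1137 ± 13.2 and Tnnc2 at 1123 ± 24.4 CPM per kb overlapped and have no resolved order. Myh2 was lowest at 412 ± 17.1 CPM per kb.

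The members varied far more among prednisone libraries than among vehicle libraries. This contrast is not particular to the members, because the vehicle libraries lay close together over all genes, as given above. Whether prednisone widened the spread was not tested, and the small vehicle spread may be technical. With so narrow a vehicle range, libraries of another group fall outside it easily. Coefficients of variation of the members were 0.617% to 4.16% in vehicle, 12.1% to 47.3% in weekly and 15.4% to 28.9% in daily libraries, on the deposited CPM scale. Myh2 was the most variable member in each of the 3 groups on that scale. Its highest library exceeded its lowest 1.12-fold in vehicle, 4.20-fold in weekly and 2.43-fold in daily libraries. With TMM scaling the daily coefficients were lower, from 6.16% for Tnni2 to 16.8% for Myh1, and Myh2 stood at 15.7% with a highest-to-lowest fold of 1.54.

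**Figure D1:**
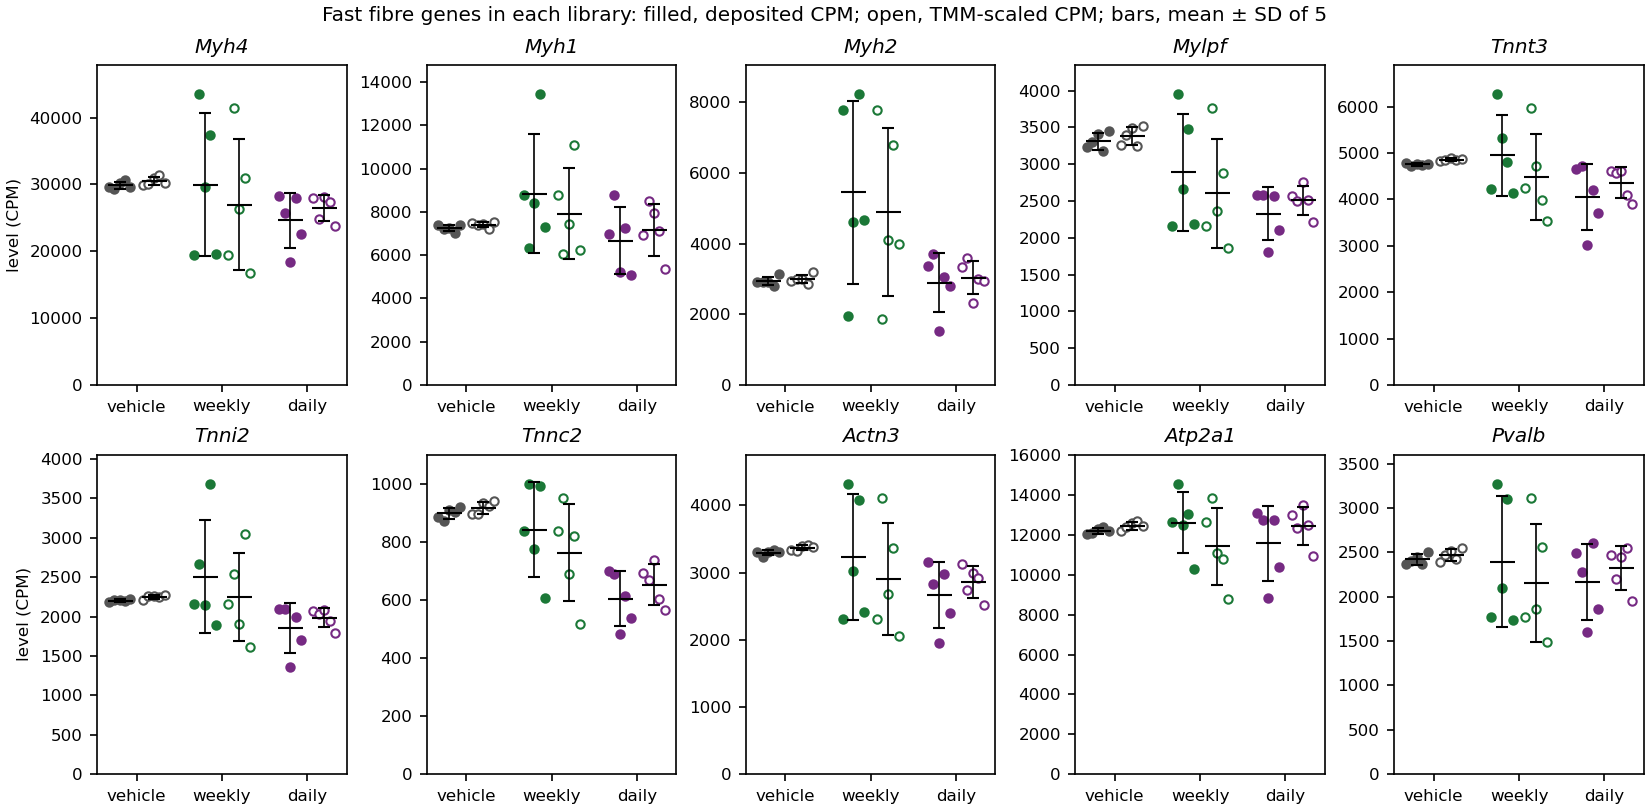
Level of each of the 10 genes (y axis, CPM from 0) in every vehicle, weekly and daily library, in order of replicate number from left to right within a group. Filled points are deposited CPM, open points TMM-scaled CPM, and bars give mean ± SD of 5; vehicle points nearly coincide while weekly points spread widely, as in Myh2 with 1960 to 8232 CPM.

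The first comparison asks how the fast programme of dystrophic muscle differed when prednisone was given weekly. No member passed the test (limma, Benjamini-Hochberg adjusted p under 0.05 over all genes), where 8.06% of all tested genes did. One member, Myh2, had an unadjusted p under 0.05. On recovered reads, edgeR called 0 members against 11.3% of all genes, and DESeq2 called 1, Myh2, against 13.5%. With TMM scaling 0 were called against 9.94% of genes. No member had weekly and vehicle libraries that did not overlap, which held for 13.4% of all genes. The median log2 change of the members was -0.01, beside 0.17 for all genes, and with TMM scaling it was -0.19 beside 0.01.

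Myh2, the IIa heavy chain, measured 2907, 2927, 2918, 2804 and 3138 CPM in vehicle replicates 1 to 5. Weekly replicates 1 to 5 held 7782, 1960, 4625, 8232 and 4663 CPM. Weekly 2 lay below every vehicle library and the other 4 lay above all of them. The log2 change was 0.73 (SE 0.30, 95% interval 0.10 to 1.35, limma adjusted p = 0.140), and 0.55 with TMM scaling (adjusted p = 0.224). Without weekly 2 it was 1.05 (SE 0.24, limma adjusted p = 0.00766). Without weekly 4 it was 0.54 (adjusted p = 0.133).

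Myh4, the IIb heavy chain, measured 29598, 29333, 30204, 30677 and 29630 CPM in vehicle libraries. The weekly libraries held 19419, 43488, 29620, 37472 and 19622 CPM, so that 2 lay above and 2 below the whole vehicle range. Weekly 2, the lowest library for Myh2, was the highest for Myh4. The mean log2 change was -0.07 (SE 0.28, limma adjusted p = 0.902), with a 95% interval of -0.67 to 0.52.

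Myh1, the IIx heavy chain, measured 7382, 7216, 7264, 7031 and 7395 CPM in vehicle and 8777, 6345, 8397, 13442 and 7308 CPM in weekly libraries. Weekly 4 was highest and weekly 2 lowest. The log2 change was 0.24 (SE 0.22, limma adjusted p = 0.531).

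Mylpf, the fast regulatory light chain (chromosome 7, 127208890 to 127214298, plus strand), measured 3228, 3305, 3408, 3176 and 3452 CPM in vehicle libraries. In weekly libraries it measured 2162, 3951, 2668, 3479 and 2188 CPM, with 3 below and 2 above the vehicle range. The log2 change of -0.24 (SE 0.19) was not called (limma adjusted p = 0.444). With TMM scaling and without weekly 4, a setting added after the data were seen, it was -0.47 (SE 0.14, limma adjusted p = 0.0264).

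The troponin genes, whose products make the thin filament respond to calcium, varied in both directions in weekly libraries. Tnnc2, the calcium-binding subunit (chromosome 2, 164777161 to 164779967, minus strand), measured 885, 872, 909, 904 and 921 CPM in vehicle and 837, 1001, 775.5, 991 and 607 CPM in weekly libraries. Tnni2, the inhibitory subunit (chromosome 7, 142441808 to 142444410, plus strand), measured 2181, 2204, 2206, 2192 and 2228 CPM in vehicle and 2153, 2664, 2141, 3687 and 1892 CPM in weekly libraries. Tnnt3, which anchors troponin to tropomyosin (chromosome 7, 142498836 to 142516009, plus strand), measured 4778, 4712, 4771, 4732 and 4772 CPM in vehicle and 4233, 6264, 5319, 4807 and 4131 CPM in weekly libraries. All 5 weekly libraries of each gene lay outside the vehicle range, some above and some below, and weekly 5 was the lowest for all of them.

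For these and the remaining 3 members the weekly log2 changes lay between -0.12 for Tnnc2 and 0.15 for Tnni2, with adjusted p between 0.657 and 0.933 (limma). Pvalb, the cytosolic calcium buffer of fast fibres (chromosome 15, 78191114 to 78206400, minus strand), measured 2370, 2406, 2453, 2368 and 2506 CPM in vehicle and 1773, 3276, 2093, 3101 and 1743 CPM in weekly libraries. Actn3, which cross-links actin at the Z-disc of fast fibres (chromosome 19, 4861216 to 4877909, minus strand), measured 3299, 3233, 3308, 3336 and 3311 CPM in vehicle and 2313, 4323, 3027, 4077 and 2413 CPM in weekly libraries. For both genes weekly 2 and 4 were high and weekly 1 and 5 were low, as for Myh4. Atp2a1, which pumps calcium back into the sarcoplasmic reticulum (chromosome 7, 126445858 to 126463108, minus strand), was the steadiest member in weekly libraries, at 12646, 14573, 12506, 13028 and 10313 CPM, against 12048 to 12417 CPM in vehicle.

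Summed markers of other cell types were set beside vehicle. Adipocyte and blood sums did not overlap vehicle in weekly or daily libraries, while fibroblast, macrophage and endothelial sums overlapped it in both. Regenerating fibre sums overlapped it in daily libraries. All 8 adipocyte markers were in the table and none was at 0 throughout, and they summed to 439 to 477 CPM in vehicle, 478 to 2315 CPM in the weekly group and 137 to 313 CPM in the daily group. The 8 fibroblast markers summed to 1674 to 1886 CPM in vehicle, 1811 to 19541 in weekly and 1645 to 3002 in daily libraries. The 7 macrophage markers in the table summed to 396 to 431, 175 to 1560 and 247 to 499 CPM in that order. The 6 regenerating fibre markers summed to 154 to 171, 184 to 795 and 126 to 294 CPM. Weekly 4 held the highest sum of each of these types. Endothelial markers (7 of 7) summed to 218 to 229 CPM in vehicle, 223 to 387 CPM in the weekly group and 144 to 225 CPM in the daily group. Blood markers (3 of 5) summed to 79.1 to 84.8, 43.5 to 78.3 and 23.4 to 45.1 CPM in the same order. Their part in the results was not tested.

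The second comparison asks how the fast programme differed under daily prednisone. One member fell, Tnnc2, and none rose, beside 3.89% of all tested genes called in either direction and 2.13% called lower. With TMM scaling 1 member was called, again Tnnc2, against 9.08% of genes. EdgeR called 1 member against 9.47%, and DESeq2 called 2, Tnnc2 and Mylpf, against 11.4%. The median log2 change of the 10 members was -0.26, beside -0.08 for all genes, and -0.17 beside 0.00 with TMM scaling.

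Tnnc2 measured 700.2, 689.7, 482, 615 and 537 CPM in daily libraries, all below the lowest vehicle library at 872 CPM. The fitted log2 change was -0.58 (SE 0.15, 95% interval -0.90 to -0.27, limma adjusted p = 0.0307), and -0.50 with TMM scaling (adjusted p = 0.0260). TMM-scaled levels in daily libraries were 693, 668, 738, 602 and 564 CPM, with daily 3 now the highest and all still below the vehicle minimum of 895 CPM. The call was lost without any 1 vehicle library and without daily 4 or daily 5, with limma adjusted p between 0.0598 and 0.0990. Averaging the 5 vehicle libraries into 1 sample also ended it (limma adjusted p = 1.00). Adipocyte marker sums were lower in daily than in vehicle libraries, as given above, and their part in the result was not tested.

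Mylpf measured 2588, 2581, 1804, 2564 and 2105 CPM in daily libraries, all below the vehicle minimum of 3176 CPM. The log2 change was -0.52 (SE 0.19, 95% interval -0.91 to -0.14, limma adjusted p = 0.136). At the same change it was called without weekly 4 (SE 0.16, limma adjusted p = 0.0265) and with only the vehicle and daily libraries in the fit (SE 0.15, limma adjusted p = 0.00903).

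For 5 members, Myh4, Mylpf, Tnni2, Tnnc2 and Actn3, every daily library lay below every vehicle library, as did 8.82% of all genes. With TMM scaling Tnnt3 joined them, making 6, where 9.62% of all genes did so. Myh4 measured 28316, 25691, 18419, 27948 and 22648 CPM in daily libraries. Its log2 change was -0.30 (SE 0.28, 95% interval -0.89 to 0.29, limma adjusted p = 0.651). Actn3 measured 3158, 2826, 1958, 2983 and 2394 CPM in daily libraries, with a log2 change of -0.33 (SE 0.20, limma adjusted p = 0.419). For both genes the highest daily library lay below the lowest vehicle library.

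Tnni2 measured 2097, 2101, 1362, 1989 and 1705 CPM in daily libraries. The log2 change was -0.27 (SE 0.18, limma adjusted p = 0.488). Tnnt3 measured 4648, 4725, 3015, 4194 and 3711 CPM in daily libraries, with a log2 change of -0.25 (SE 0.18, limma adjusted p = 0.535). The 3 troponin genes thus lay in 1 direction, with only Tnnc2 past the threshold. Whether Tnnc2 changed more than Tnni2 or Tnnt3 was not tested.

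The other members sat closer to vehicle under daily prednisone. Atp2a1 measured 13114, 12729, 8829, 12766 and 10412 CPM, with 3 libraries above and 2 below the vehicle range, and a log2 change of -0.09 (SE 0.21, limma adjusted p = 0.869). Pvalb measured 2494, 2277, 1601, 2601 and 1858 CPM, with a change of -0.18 (SE 0.20, limma adjusted p = 0.694). Myh1 measured 6993, 8771, 5208, 7269 and 5088 CPM, with a change of -0.15 (SE 0.22, limma adjusted p = 0.780). Myh2 measured 3374, 3711, 1524, 3055 and 2813 CPM, with a change of -0.08 (SE 0.30, limma adjusted p = 0.925) that was 0.01 with TMM scaling and 0.13 without daily 3.

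**Figure D2:**
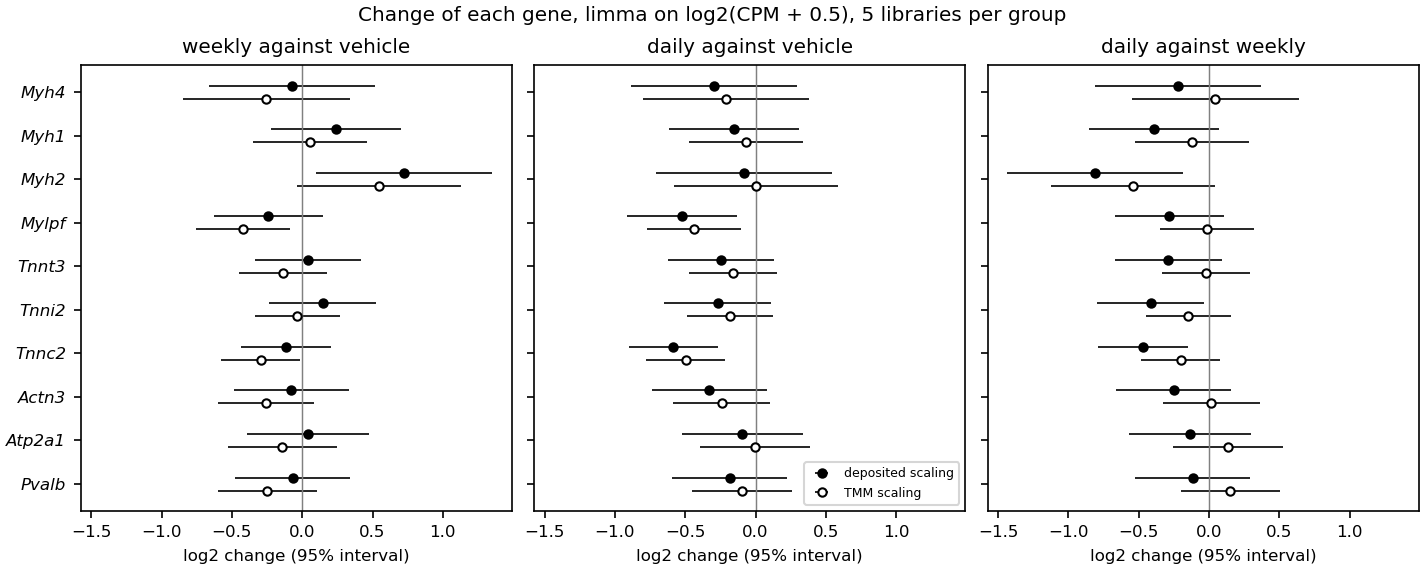
Log2 change (x axis) of each of the 10 genes in the 3 comparisons, from limma on 5 libraries per group, with 95% intervals. Filled points use the deposited scaling and open points TMM scaling; in daily against vehicle the intervals of Tnnc2 (-0.90 to -0.27) and Mylpf lie below 0 on both scales.

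The third comparison set the regimens against each other. No member was called, against 8.73% of all genes by limma, and 3 members (Myh2, Tnni2 and Tnnc2) had an unadjusted p under 0.05. With TMM scaling 0 were called against 4.72% of genes, and none had an unadjusted p under 0.05. EdgeR called 0 members against 5.31% of genes, and DESeq2 called 0 against 7.45%, with Myh2 at an unadjusted p under 0.05 in each. No member had daily and weekly libraries that did not overlap, which held for 7.21% of all genes. Myh2 stood 0.81 lower on the log2 scale in daily than in weekly libraries (log2 change -0.81, SE 0.30, limma adjusted p = 0.0878), and the change was -1.14 without weekly 2 (adjusted p = 0.00522). Tnnc2 differed by -0.47 (SE 0.15, limma adjusted p = 0.0577) on the deposited scale and by -0.20 (adjusted p = 0.429) with TMM scaling. It was called without weekly 5 (-0.58, limma adjusted p = 0.0345) and without daily 2 (-0.52, limma adjusted p = 0.0499).

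The balance of the 3 fast myosins was compared within each library, where library scaling has no effect. As shares of their sum per kilobase, vehicle muscle had 76.2 ± 0.705% Myh4, 17.5 ± 0.460% Myh1 and 6.31 ± 0.284% Myh2. Weekly muscle had 68.6 ± 10.6% Myh4, 20.03 ± 4.98% Myh1 and 11.4 ± 5.77% Myh2. Daily muscle had 73.9 ± 2.67% Myh4, 18.9 ± 2.40% Myh1 and 7.20 ± 1.25% Myh2.

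The Myh2 share in weekly replicates 1 to 5 was 19.1%, 3.23%, 9.40%, 12.1% and 12.9%, against 5.95% to 6.74% in vehicle libraries. The Myh4 share in the same weekly libraries was 56.6%, 85.0%, 71.4%, 65.6% and 64.4%, against 75.4% to 77.3% in vehicle libraries. Weekly 1, 3, 4 and 5 thus had more Myh2 and less Myh4 than any vehicle library, and weekly 2 had the opposite. In daily libraries the Myh2 share was 7.53%, 8.43%, 5.22%, 6.88% and 7.95%, with 4 libraries above the vehicle range and daily 3 below it. Sequence alone cannot assign 0.511% of the 150-base windows of Myh4, 2.50% of those of Myh1 and 2.06% of those of Myh2, because they also occur in Myh1, Myh2, Myh4 or Myh8, and the other 7 members have no such windows.

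**Figure D3:**
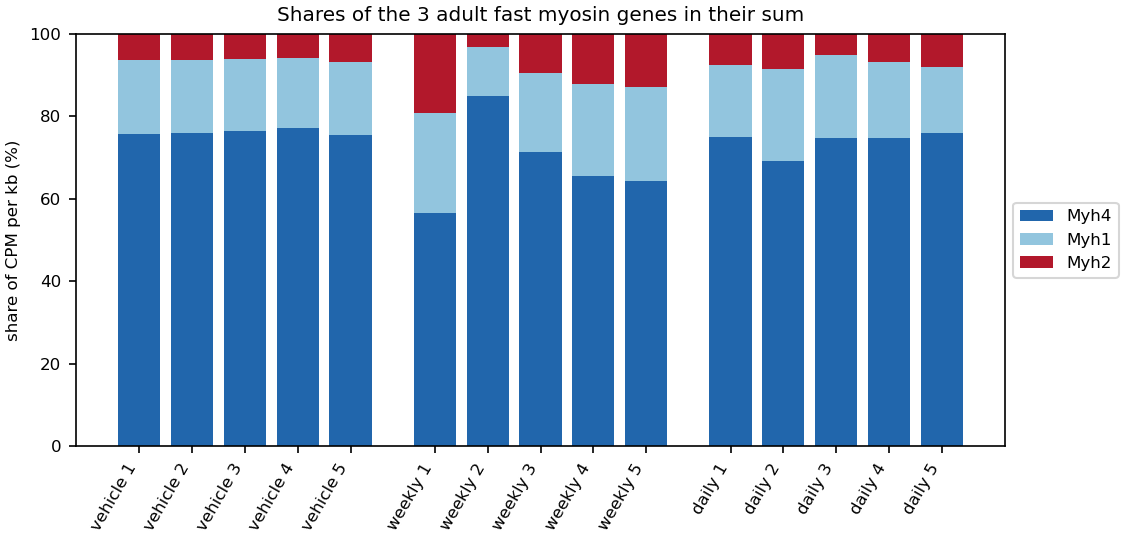
Share of Myh4, Myh1 and Myh2 in their summed CPM per kilobase (y axis, percent from 0 to 100) in each of the 15 libraries. The Myh2 segment is near 6% in every vehicle library, reaches 19.1% in weekly 1 and shrinks to 3.23% in weekly 2.

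The log2 ratio of Myh4 to Myh2 was 3.35 ± 0.077 in vehicle, 2.55 ± 1.18 in weekly and 3.13 ± 0.297 in daily libraries. None of the 9 myosin ratio tests passed (2-sided exact permutation tests, Benjamini-Hochberg over 9). The weekly ratio of Myh4 to Myh2 differed from vehicle by -0.80 (exact permutation p = 0.151, adjusted p = 0.386), with 4 libraries below and 1 above all vehicle libraries. Myh1 to Myh2 differed by -0.49 (exact permutation p = 0.0635, adjusted p = 0.386), with the same 4 to 1 split. Myh4 to Myh1 differed by -0.31 (exact permutation p = 0.302, adjusted p = 0.388), again 4 to 1. In daily libraries the 3 differences from vehicle lay between -0.22 and -0.07, with exact permutation p between 0.151 and 0.651. Without daily 3, Myh4 to Myh2 differed by -0.33, with 4 of 4 daily libraries below vehicle (exact permutation p = 0.0159, adjusted p = 0.0952), and without daily 2 by -0.13 (exact permutation p = 0.302). Adjustment was then over only the tests that involve the daily group. Daily 3 was the 1 daily library above vehicle for Myh4 to Myh2, so leaving it out fixed that p in advance.

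The outcome of all 3 weekly tests turned on weekly 2. Without it, the weekly differences were -1.28, -0.71 and -0.57 in the same order, each at the smallest exact permutation p that 4 against 5 libraries allow (0.0159, adjusted p = 0.0238). Adjustment was then over the 6 tests that involve the weekly group. The 4 weekly libraries that remain already lay below all vehicle libraries in each ratio. Leaving out weekly 2 therefore fixed these p-values against vehicle, and they add no evidence of a weekly shift. The differences between daily and weekly libraries were 1.07, 0.64 and 0.43 (exact permutation, adjusted p between 0.0238 and 0.0317).

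The summed fast myosins and 6 other members were also set against a partner gene in the same library, and Pvalb had no partner. The partners came from a list of slow-fibre genes. Actn2, unlike Myh7, overlapped vehicle in daily libraries, at 482 to 947 CPM against 845 to 883 CPM. The ratio of Actn3 to Actn2 may therefore not measure a balance of fast and slow fibres. Mean vehicle levels of these partners ran from 33.4 CPM for Tnnc1 to 874 CPM for Actn2, with Myh7 at 397 to 454 CPM. Under daily prednisone Myh7 measured 55.7, 115, 30.0, 64.9 and 215 CPM, and it fell by 2.41 on the log2 scale (SE 0.68, limma adjusted p = 0.0483), or by 2.33 with TMM scaling (adjusted p = 0.0550). Of 14 genes tested from the slow-fibre list, 6 fell and 0 rose in daily against vehicle, beside 2.13% and 1.76% of all genes. Myl2, a slow light chain, fell by 1.91 (limma adjusted p = 0.00770) and Sln, a small inhibitor of the calcium pump, fell by 0.80 (limma adjusted p = 0.0238). Myl3, another slow light chain, fell from 58.3 ± 3.84 to 9.73 ± 7.58 CPM (limma adjusted p = 0.0151). With TMM scaling 5 of the 14 fell, beside 489 of 14024 genes. In weekly against vehicle 0 of the 14 were called, beside 8.06% of all genes. With TMM scaling 1, Myl2, was lower (log2 change -1.43, limma adjusted p = 0.0371), beside 589 of 14024 genes. Between daily and weekly libraries 2 were lower in daily, Sln and Actn2, beside 8.24% of all genes. With TMM scaling 0 were lower, beside 372 of 14024 genes.

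The log2 ratio of summed fast myosins to Myh7 was 6.65, 6.59, 6.64, 6.67 and 6.46 in vehicle libraries. It was 9.43, 8.37, 9.69, 9.19 and 7.15 in daily libraries, all above vehicle, a difference of 2.16. Tnni2 to Tnni1 differed by 1.44 and Mylpf to Myl2 by 1.38, again with 5 of 5 daily libraries above all vehicle libraries. Each of these 3 reached 0.00794, the smallest p an exact permutation test of 5 against 5 allows, and missed the threshold after adjustment over 21 ratio tests (adjusted p = 0.0556).

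Other daily pairs had less separation. Tnnt3 to Tnnt1 differed by 0.98 (exact permutation p = 0.0397, adjusted p = 0.200), Tnnc2 to Tnnc1 by 0.85 (exact permutation p = 0.0794, adjusted p = 0.278) and Atp2a1 to Atp2a2 by 0.53 (exact permutation p = 0.0476, adjusted p = 0.200). Actn3 to Actn2 differed by -0.09 (exact permutation p = 0.349, adjusted p = 0.544). Daily 5 had the lowest ratio of the daily libraries in 6 of the 7 pairs, all but Actn3 to Actn2. With all daily libraries, none of the 7 pairs passed. Without daily 5, those 6 pairs passed at adjusted p = 0.0370 (exact permutation), with differences of 0.74 to 2.57. Adjustment was then over only the tests that involve the daily group. The 4 daily libraries that remain already lay above all vehicle libraries in each of those 6 pairs. Leaving out daily 5 therefore fixed these p-values in advance, and they add no evidence of a daily shift.

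In weekly libraries the fast-to-slow ratios spread to both sides of vehicle. The ratio of fast myosins to Myh7 was 5.96, 11.6, 6.83, 6.34 and 7.82 on the log2 scale, with weekly 2 the highest of all 15 libraries. Weekly 2 held 15.7 CPM of Myh7, and the remaining weekly libraries held 139.7 to 729.7 CPM. None of the 7 weekly ratios passed against vehicle (exact permutation p between 0.127 and 0.889), and none of the 7 passed between daily and weekly libraries (exact permutation p between 0.167 and 0.651). These differences also turned on weekly 2. Without it, fast myosins to Myh7 differed by 2.03 between daily and weekly libraries (exact permutation p = 0.0317, adjusted p = 0.0635) and Actn3 to Actn2 by 0.71, with 5 of 5 daily libraries above all weekly ones (exact permutation p = 0.0159, adjusted p = 0.0635). Against vehicle, Actn3 to Actn2 then differed by -0.80 and Atp2a1 to Atp2a2 by -0.50, each with 4 of 4 weekly libraries below vehicle (exact permutation p = 0.0159, adjusted p = 0.0635). Adjustment without weekly 2 was over only the tests that involve the weekly group. For Actn3 to Actn2 and Atp2a1 to Atp2a2, weekly 2 was the 1 weekly library above vehicle. Leaving it out therefore fixed their p against vehicle in advance.

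**Figure D4:**
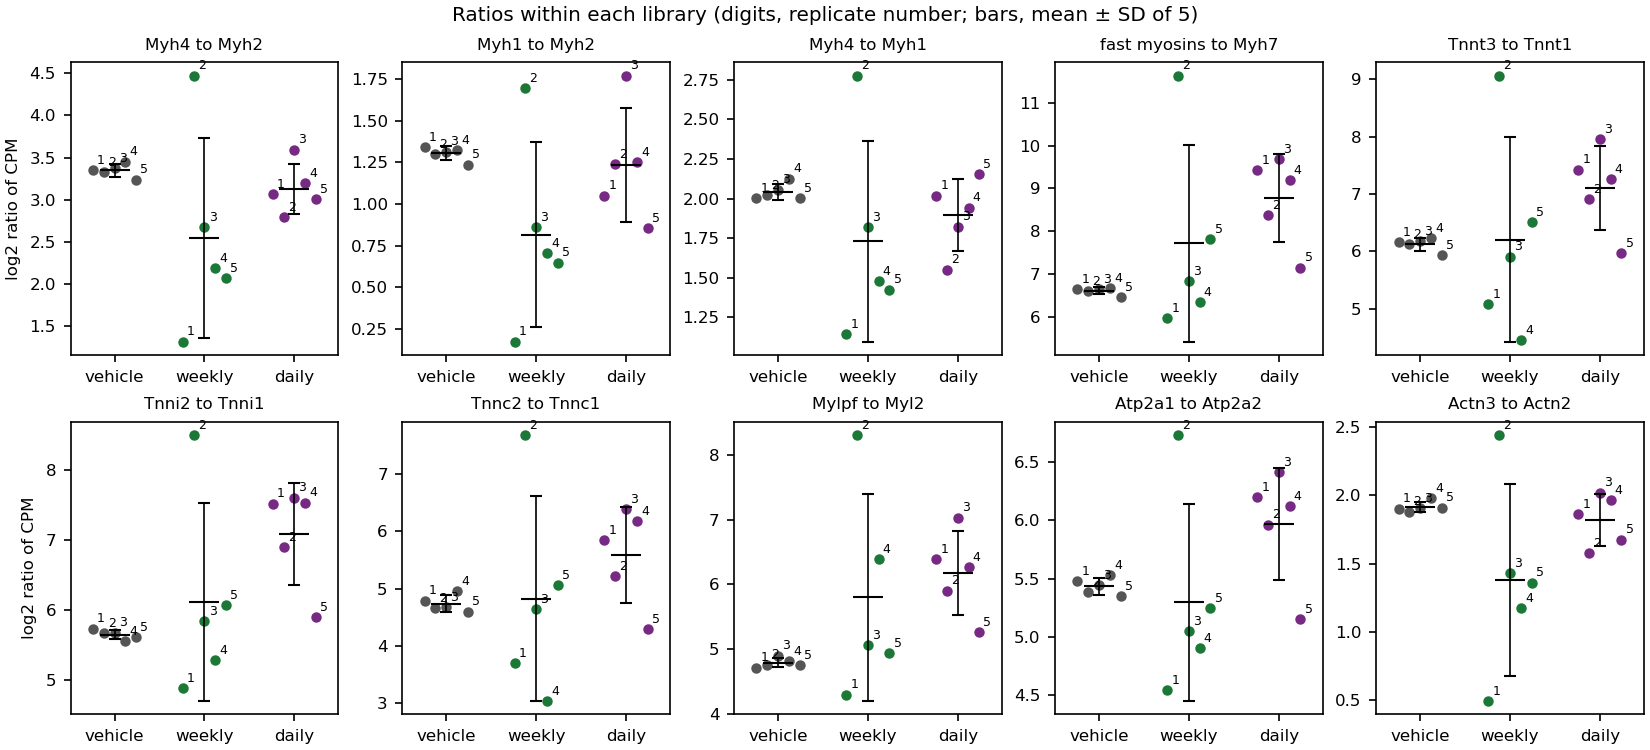
Log2 ratio of CPM (y axis) between pairs of genes within each vehicle, weekly and daily library, with replicate numbers beside the points and bars for mean ± SD of 5. In the panels against partner genes the daily points lie mostly above vehicle, with daily 5 lowest in all but Actn3 to Actn2, and weekly 2 tops every weekly column.

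**Figure D5:**
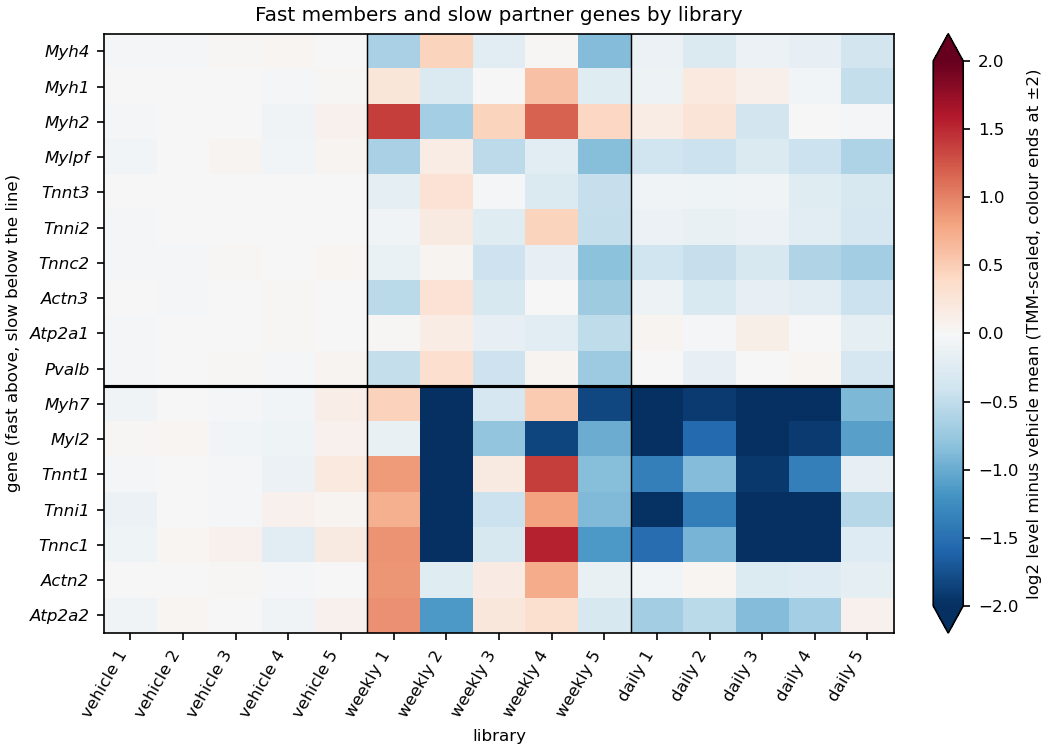
Heat map of the 10 fast genes (above the line) and 7 slow partner genes (below it) in each library, coloured by TMM-scaled log2 level minus the vehicle mean, with colours ending at 2 in either direction. Myh7, Myl2, Tnnt1, Tnni1 and Tnnc1 are darkest blue in weekly 2 and blue in daily 1 to 4, while Actn2 is pale there; Myh2 is red in weekly 1 and 4 and blue in weekly 2.

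Of 21 further fast contractile, sarcoplasmic and calcium genes, 0 rose and 1 fell in weekly against vehicle, beside 6.99% and 1.07% of all genes. With TMM scaling 3 fell (Mylk4, Tmod4 and Cacng1), beside 589 of 14024 genes. In daily against vehicle 0 rose and 1 fell, beside 1.76% and 2.13% of all genes. Between daily and weekly 0 were called in either direction, beside 0.484% of all genes higher and 8.24% lower. With TMM scaling 1 was higher in daily than weekly, Mylk4 (log2 change 0.75, limma adjusted p = 0.0280), beside 290 of 14024 genes. Mylk4, a kinase of the myosin light chain kinase family, was the gene that fell in both. It measured 583 ± 6.39 CPM in vehicle, 240 ± 84.9 CPM in weekly and 324 ± 41.6 CPM in daily libraries. For weekly against vehicle the log2 change was -1.34 (SE 0.18, limma adjusted p = 5.18e-05), and for daily against vehicle it was -0.86 (SE 0.18, limma adjusted p = 0.00514). Both comparisons share the vehicle libraries.

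Among 10 other myosin heavy chains, 3 rose and 0 fell in weekly against vehicle, beside 6.99% and 1.07% of all genes. Myh13, the extraocular myosin at the end of the same chromosome 11 cluster, was low at 4.44 ± 1.14 CPM in vehicle and rose to 12.5 ± 2.38 CPM in weekly (log2 change 1.41, limma adjusted p = 0.00118) and to 15.3 ± 8.98 CPM in daily libraries (1.58, limma adjusted p = 0.000621). The non-muscle myosin Myh10 rose by 0.78 (limma adjusted p = 0.0251) and the smooth muscle myosin Myh11 by 0.51 (limma adjusted p = 0.0349) in weekly libraries. In daily against vehicle 1 rose, Myh13, and 1 fell, Myh7, beside 1.76% and 2.13% of all genes. With TMM scaling 2 rose there, Myh13 and the embryonic myosin Myh3, and 0 fell, beside 784 and 489 of 14024 genes. Between daily and weekly libraries 0 were higher and 2 were lower in daily, Myh11 and Myh10, beside 0.484% and 8.24% of all genes, and with TMM scaling Myh10 was no longer called (adjusted p = 0.0909).

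Of 33 regulators of fibre type, 5 rose and 2 fell in weekly against vehicle, beside 6.99% and 1.07% of all genes, and 5 rose and 1 fell in daily against vehicle, beside 1.76% and 2.13%. With TMM scaling the split was 3 rising and 5 falling for weekly, beside 805 and 589 of 14024 genes. For daily it was 6 rising and 3 falling, beside 784 and 489 of 14024. Rcan1, an inhibitor of calcineurin, rose from 43.3 ± 1.76 CPM in vehicle to 191 ± 62.7 CPM in weekly (log2 change 2.05, limma adjusted p = 4.34e-06) and 112 ± 29.8 CPM in daily libraries (1.30, limma adjusted p = 0.000955). It was lower in daily than weekly (log2 change -0.75, limma adjusted p = 0.0377), a call lost with TMM scaling (-0.48, adjusted p = 0.116). It was the only regulator of the 33 called in that comparison. With TMM scaling 2 others, Foxo1 and Klf15, were higher in daily, beside 290 of 14024 genes. Tead4, a transcription factor of muscle differentiation, rose by 0.89 in weekly (limma adjusted p = 0.000569) and by 0.88 in daily libraries (limma adjusted p = 0.000898). Ppara, a nuclear receptor of lipid metabolism, rose by 1.04 in weekly libraries (limma adjusted p = 0.0172). Six4, a homeobox transcription factor, fell by 0.93 in daily libraries (limma adjusted p = 0.00203), from 40.9 ± 2.82 to 21.6 ± 5.07 CPM.

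Of 20 genes of all fibre types, 1 rose and 0 fell in weekly against vehicle, beside 6.99% and 1.07% of all genes, and 0 rose and 2 fell in daily against vehicle, beside 1.76% and 2.13%. Ankrd1, a stretch-responsive titin partner, rose by 0.66 in weekly libraries (limma adjusted p = 0.0463), and Hspb7, a small heat shock protein, fell by 0.66 in daily libraries (limma adjusted p = 0.0356), as did Pdlim3, a Z-disc protein, by 0.55 (limma adjusted p = 0.0465). Of 12 tested relatives in calcium removal (15 listed), 2 rose in weekly, S100a1 by 0.53 (limma adjusted p = 0.0341) and Hrc by 0.45 (limma adjusted p = 0.0483), and 1 fell in daily against vehicle, beside the same shares of all genes. That gene was Calm2, a calmodulin gene, with a log2 change of -0.56 (SE 0.13, limma adjusted p = 0.0121). Between daily and weekly libraries 2 genes of all fibre types (Mb and Lmod3) and 2 calcium relatives (S100a1 and Calm2) were lower in daily, beside 8.24% of all genes, and none of these 4 calls held with TMM scaling. With TMM scaling Pdlim3 and Slc8a3 were called lower in weekly against vehicle, beside 589 of 14024 genes. Pln was then called higher in daily than weekly, beside 290 of 14024. For weekly against vehicle with TMM scaling S100a1, Hrc and Ankrd1 were no longer called (adjusted p = 0.0700, 0.156 and 0.0886).

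Across the 15 libraries, 7834 genes averaging at least 10 CPM were ranked by how closely their profile followed each myosin, as the root mean square difference of centred log2 values. Nearest to Myh4 were Actn3 at 0.07, Pvalb at 0.11 and the fast light chain gene Myl1 at 0.12, where the spread of Myh4 itself was 0.33. Nearest to Myh2 were Idh2, a mitochondrial enzyme, at 0.18, the M-band gene Myom3 at 0.19 and the calsequestrin gene Casq2 at 0.22, beside a spread of 0.62. Nearest to Myh1 were Irf2bpl at 0.11, Optn at 0.12 and Cav3 at 0.13, beside a spread of 0.32. These are descriptions over libraries that share depth and scaling, and the first 2 genes named for Myh4 are themselves members.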

How the data were processed

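Total RNA from quadriceps was sequenced as 150-base read pairs from a stranded kit, per the labels' protocols. The submitters' processing notes name TopHat2 2.1.0, HTSeq and edgeR as tools and GRCm38 (mm10) as the build; whether reads were counted by strand is not known here. The authors deposited 1 table of 15 libraries whose unit the labels call RPKM, but its values are CPM: 222090 of 222090 are whole multiples of 1 read in their library within 0.01 reads, at any gene length. The 534 features with no gene name held 0.276% to 0.447% of a library and were left out.

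Values were tested as log2(CPM + 0.5), the scale of all fold changes, with limma 3.58.1 (R 4.3.3, trended empirical Bayes), all 15 libraries in a single fit and BH adjustment over 14059 genes with at least 1 CPM in at least 5 libraries. EdgeR 4.0.16 and DESeq2 1.42.0 were run on recovered reads. On these reads edgeR called 1584, 1332 and 746 genes and DESeq2 1904, 1596 and 1047, for weekly against vehicle, daily against vehicle and daily against weekly. Ratios were tested with exact permutation tests (SciPy 1.17.1). Levels per kilobase used merged exons of GENCODE M21. Of these tests, only the limma fit was tried on simulated data, and its recovery there is not reported here. Intervals and floors cover counting error or library spread only.

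The genes, gene lists and tests were chosen with earlier results of these data known. By rule, the text names all 10 members, the slow partners used in ratios, up to 3 called genes with the smallest p per list and comparison, and the 3 genes most like each myosin. List genes called only with TMM scaling are named outside this rule, chosen after their values were seen. The settings that combine TMM scaling with leaving out weekly 4 alone or daily 3 alone were also chosen after seeing the data. Alternatives covered scaling, pseudocounts, filters, left-out libraries and count tests.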

Additional observations from a re-analysis of the deposited data

Results flagged for a closer look

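Of 60 sets of 5 libraries checked (each member and each ratio in each group), 1 had a library standing apart, where chance gives about 3. It was the log2 ratio of Actn3 to Actn2 in vehicle replicate 4, at 1.98, against 1.88 to 1.91 in the other vehicle libraries, and its gap took more than 0.71 of the range. The size is small beside the spread of this ratio in weekly libraries.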

How the results depend on the processing

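Counts of genes called moved with scaling and libraries, and between 0 and 2 of the 10 members were called in a comparison. The settings without weekly 4 alone or daily 3 alone under TMM scaling were chosen after seeing the data. For weekly against vehicle, TMM scaling without weekly 4 and daily 3 gave 2408 genes, without weekly 4 alone 2403, DESeq2 1904 and the vehicle libraries averaged to 1 sample 7 (450 at an unadjusted p under 0.05), against 1133; leaving out 1 library gave 645 to 2251 (645 to 684 without a vehicle library, 710 without weekly 3, 676 without weekly 5, 2251 without daily 3), and 0 to 1 members. TMM scaling without weekly 4, with or without daily 3, called 1 member lower each time, and DESeq2 called 1 higher, Myh2. For daily against vehicle (547 genes), TMM gave 1273, quantile normalization 1290, TMM without weekly 4 and daily 3 2845, without weekly 4 2995, without daily 3 983, 2 groups alone 1665, edgeR 1332, DESeq2 1596 and averaged vehicle 3; leaving out 1 library gave 347 to 1478 (347 to 355 without vehicle 2, 3, 4 or 5, 1478 without weekly 4, 847 without daily 3) and 0 to 2 members. Members called were 2 with TMM without weekly 4 (with or without daily 3), with 2 groups alone and with DESeq2, and 0 with averaged vehicle. For daily against weekly (1227 genes), TMM gave 662, quantile 702, 2 groups alone 228, averaged vehicle 233, TMM without weekly 4 1884, without daily 3 429 and edgeR 746; leaving out 1 library gave 521 to 1888 (611, 1888 and 521 without weekly 3, 4 and 5, 756 and 651 without daily 3 and 5) and 0 to 1 members. A filter at 5 CPM called 1 member there. The cause of these moves was not tested. TMM scaling moved the median log2 change of all genes from 0.17 to 0.01, from -0.08 to 0.00 and from -0.24 to 0.01, and the called genes from 983 higher and 150 lower to 805 and 589, from 248 and 299 to 784 and 489, and from 68 and 1159 to 290 and 372.

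Replicate numbers did not pair the samples: 1 of 15 same-number correlations passed 0.1 (range -0.03 to 0.15), and 3 of 15 were best with their own number. The replicate block gave 1096, 494 and 985 genes and 0, 1 and 0 members, and with TMM scaling 1207, 1074 and 527 genes.

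Directions of uncalled members turned under some settings. Weekly against vehicle, Myh4 was 0.086 (quantile). Myh1 was -0.086 (TMM without weekly 4 and daily 3) and -0.074 (TMM without weekly 4). Tnnt3 was -0.14 (TMM and its block), -0.015 (quantile), -0.11 (TMM without both), -0.10 (without weekly 4), -0.16 (without daily 3), -0.12 (edgeR) and -0.12 (DESeq2). Tnni2 was -0.035, -0.17, -0.15, -0.055 and -0.0044 (TMM and its block, without both, without weekly 4, without daily 3, DESeq2), and Atp2a1 was -0.14, -0.14, -0.12, -0.16, -0.12 and -0.13 (the same, with edgeR before DESeq2). Daily against vehicle, Myh2 was 0.0052 (TMM, its block and TMM without weekly 4), 0.084 (without both), 0.086 (without daily 3), 0.020 (edgeR) and 0.011 (DESeq2), and Pvalb was 0.057 (quantile). Daily against weekly, under TMM (and its block), without both, without weekly 4 and without daily 3, Myh4 was 0.045, 0.089, 0.11 and 0.030, Actn3 was 0.017, 0.063, 0.082 and 0.0079, Atp2a1 was 0.14, 0.087, 0.12 and 0.11 (edgeR 0.12, DESeq2 0.12) and Pvalb was 0.15, 0.20, 0.23 and 0.14 (quantile 0.23, edgeR 0.11, DESeq2 0.10). Without weekly 4 under TMM, Myh1 was 0.0078 and Mylpf 0.031.

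Leaving out 1 library at a time, weekly changes ranged from -0.23 to 0.062 for Myh4, -0.048 to 0.10 for Tnnt3, -0.0042 to 0.24 for Tnni2, -0.19 to 0.031 for Actn3, -0.016 to 0.11 for Atp2a1 and -0.19 to 0.034 for Pvalb. Daily Myh2 ranged from -0.19 to 0.13, and Pvalb between daily and weekly from -0.22 to 0.0098. For ratios, weekly against vehicle, Myh4 to Myh2 ranged from -1.28 to -0.49, Myh1 to Myh2 from -0.71 to -0.33, Myh4 to Myh1 from -0.57 to -0.17, Tnnt3 to Tnnt1 from -0.63 to 0.52, Tnni2 to Tnni1 from -0.13 to 0.77, Tnnc2 to Tnnc1 from -0.62 to 0.54, Atp2a1 to Atp2a2 from -0.50 to 0.047, Actn3 to Actn2 from -0.80 to -0.31, Mylpf to Myl2 from 0.38 to 1.39 and fast myosins to Myh7 from 0.13 to 1.55. Daily against weekly, they ranged from 0.28 to 1.07 for Myh4 to Myh2, 0.26 to 0.64 for Myh1 to Myh2, 0.023 to 0.43 for Myh4 to Myh1, -0.0016 to 1.00 for Mylpf to Myl2, 0.61 to 2.03 for fast myosins to Myh7, 0.46 to 1.61 for Tnnt3 to Tnnt1, 0.66 to 1.57 for Tnni2 to Tnni1, 0.31 to 1.48 for Tnnc2 to Tnnc1, 0.49 to 1.03 for Atp2a1 to Atp2a2 and 0.22 to 0.71 for Actn3 to Actn2. In daily against vehicle, Myh1 to Myh2 ranged from -0.21 to 0.024, Myh4 to Myh2 from -0.33 to -0.13 and Myh4 to Myh1 from -0.21 to -0.058, and 0 to 6 of the 7 daily fast-to-slow ratios were called. Adjustment of ratio tests with a library left out covered only the comparisons that involve that library's group. Vehicle shares of CPM without division by length were 74.6% Myh4, 18.1% Myh1 and 7.33% Myh2. Pseudocounts and the absence of a filter changed no member's call.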
